A study of Mus musculus with 4 samples.

Results

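The genes examined were the calbindins Calb1, Calb2 and S100g, which encode calcium buffers, and the ryanodine receptors Ryr1, Ryr2 and Ryr3, which encode calcium release channels, 6 genes of the 34682 in the count table. They were named by family, and the set was chosen on the measured fall of Calb1 in mutant against wild-type ovaries. Levels in this contrast are therefore given as a description, with no test of their own. Where the test run across all genes called any of them, nothing follows from the call. RNA-seq counts came from 4 libraries of E13.5 mouse ovaries, of which 2 were from mutants that overexpress Sall1 and 2 were wild-type.

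In the mutants a bacterial artificial chromosome carried the Sall1 coding sequence behind the promoter and regulatory elements of Wt1, a gene active in gonadal somatic cells. It was inserted by piggyBac transposition into female embryonic stem cells. The study's account of the transfection derives these cells from C57BL/6J blastocysts. Its general statement on animals names C57BL/6J or its hybrid with 129. The stem cells served to make transgenic mice by morula aggregation. Whether the sequenced embryos came from aggregation or from breeding is not given in the sources used here. Nor are the number of stem cell clones, any share of host cells and any pooling of embryos. For the controls the study's text speaks of littermates in one place and of CD1 mice in another, while the wild-type columns of the count table carry B6 in their names, so a difference in strain and the transgene cannot be told apart. Nothing states that replicates 1 and 2 came from separate animals, and the spread between them may be technical.

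Calcium ions carry signals in the cytoplasm, and cells hold their resting level low. Calbindins bind the ion through EF-hands, helix-loop-helix folds whose loop of acidic residues cages it, and they blunt and move calcium in neurons and in epithelia of the kidney and intestine. Ryanodine receptors are very large channels of the endoplasmic reticulum that release stored calcium and are best known from muscle and brain. In the embryonic urogenital tract Calb1 is known as a gene of the mesonephric duct and the ureteric bud, which lie beside the gonad.

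The loops that hold calcium are shown because they mark what sets the calbindins apart from the channels and from one another. The coding sequences were read from GENCODE M1 transcripts on NCBIM37, and loops were found by matching the translated sequence to the PROSITE EF-hand pattern. The pattern describes the common form of the loop only. Loops of another form can be missed, so a lack of matches does not show a lack of calcium-binding loops. A match was present in 215 of 22594 genes with a coding sequence (0.952%). Calb1, with 261 residues, held 4 matches, Calb2, with 271 residues, held 5, and S100g, with 79 residues, held 1. Below, each line gives the coding strand of 1 loop from 5′ to 3′, and capitals mark the codons of loop positions 1, 3, 5 and 12, whose side chains are calcium ligands.
Calb1 loop 1, residues 24 to 35: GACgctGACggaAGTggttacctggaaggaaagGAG
Calb1 loop 2, residues 111 to 122: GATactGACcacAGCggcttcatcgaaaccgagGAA
Calb1 loop 3, residues 155 to 166: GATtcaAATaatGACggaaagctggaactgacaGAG
Calb1 loop 4, residues 199 to 210: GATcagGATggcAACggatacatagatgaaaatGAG
Calb2 loop 2, residues 76 to 87: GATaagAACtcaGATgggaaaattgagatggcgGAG
S100g loop 1, residues 58 to 69: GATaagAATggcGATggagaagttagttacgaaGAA
Loop 2 of Calb2 is included because Calb1 had no match between its own first and second. Calb1 and Calb2 were identical at 155 of 260 aligned residues (59.6%), whereas Calb1 and S100g shared 22 of 76 (28.9%). The ryanodine receptors were far longer, with 5035 residues in Ryr1, 4966 in Ryr2 and 4888 in Ryr3, held 0 matches, and were identical at 67.3% to 70.2% of aligned residues.

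The libraries held between 11036313 and 17869840 counts, the mutant ones fewer than the wild-type ones. Levels are given as CPM, read counts scaled to a common library size with TMM factors for composition, and 3 counts, taken as the smallest number told from absence, correspond to 0.170 to 0.272 CPM. Sall1 lay between 96.0 and 113 CPM in the mutant libraries and between 12.6 and 16.2 CPM in the wild-type libraries, higher in both libraries labelled mutant. edgeR's quasi-likelihood test was run across genes at an adjusted p under 0.05, and 15442 genes passed the filter on low counts, among them all 6 genes described here. The wild-type replicate 1 library stood apart, with a summed level of 9 skeletal muscle markers of 192 CPM against 14.6 to 34.8 CPM in the other libraries. The labelled tissue held its own markers, with sums over 8 somatic ovary genes of 1058 to 1249 CPM in the mutant and 1031 to 1138 CPM in the wild-type libraries, and over 5 germ cell genes of 1308 to 1500 CPM against 1346 to 1462 CPM.

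Calb1, which encodes calbindin-D28k, was lower in the mutant ovaries and had the largest difference of the set. Calb1, on the plus strand of chromosome 4 from 15808411 to 15835211 (NCBIM37), had 9 counts in mutant replicate 1, 14 in mutant replicate 2, 153 in wild-type replicate 1 and 267 in wild-type replicate 2. These counts correspond to 0.817, 0.931, 8.89 and 15.1 CPM in the same order. Both wild-type libraries lay above both mutant libraries, and the 95% Poisson intervals of the mutant levels, 0.373 to 1.55 CPM and 0.509 to 1.56 CPM, were separate from those of the wild-type levels, 7.54 to 10.4 CPM and 13.4 to 17.1 CPM. The intervals cover counting error only. Calb1 averaged 0.874 ± 0.0806 CPM in the mutants (SD, n = 2) and 12.01 ± 4.41 CPM in the wild type (SD, n = 2), 13.7 times as much, and the fitted log2 fold change was -3.76 (standard error 0.37). In wild-type ovaries the level was 1.70 times as high in replicate 2 as in replicate 1.

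Calb1 was the only 1 of the 6 genes among the genes called, and the share of all genes tested that were called was 0.0583%, with 0.0453% lower and 0.013% higher in the mutant ovaries. Since the contrast chose the set, nothing follows from this count. Without wild-type replicate 2 Calb1 was no longer called, and its log2 fold change was then -3.32 (standard error 0.43). In bulk tissue fewer Calb1-expressing cells and less Calb1 RNA per cell cannot be told apart.

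The summed level of 8 mesonephric duct and tubule markers was 37.8 and 51.9 CPM in the mutant libraries and 37.5 and 41.9 CPM in the wild-type libraries, so the groups overlapped. Of these 8 genes 3 were lower and 2 higher in the mutant library of both same-numbered pairs, and 0 were called by edgeR. Ret, a receptor of the duct, had 96 and 215 counts in the mutant and 261 and 314 in the wild-type libraries, and Pax8 had 153 and 266 against 156 and 160. The summed level of 6 mesothelium and surface epithelium markers was lower in both mutant libraries, at 144 and 106 CPM in the mutant libraries and 170 and 171 CPM in the wild-type libraries. In this list 4 of 6 genes were lower in both pairs, 0 were called, and the defining marker Upk3b had 700 and 727 counts against 1485 and 1726. Without Upk3b the other 5 genes summed to 80.03 and 57.3 CPM in the mutants and 83.2 and 73.4 CPM in the wild type, and the groups overlapped. The part of these cells in the level of Calb1 was not tested.

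Calb2 encodes calretinin, a buffer of neurons and of steroid-producing and mesothelial cells. The gene (chromosome 8, 112661402 to 112692110, minus strand) counted 16 and 12 reads in the mutants against 22 and 15 in the wild type. The levels, 1.45, 0.798, 1.28 and 0.850 CPM, interleaved between the groups, and replicate 1 was the higher library in both. The log2 fold change was 0.05 (standard error 0.50), which at this depth leaves room for a change in either direction. Beside it, 9 markers of neurons and neural crest summed to 20.6 and 11.03 CPM in the mutant and 23.1 and 14.1 CPM in the wild-type libraries, also higher in replicate 1 of both groups. The 7 Sertoli and Leydig cell genes summed to 40.6 and 48.1 CPM against 49.9 and 60.7 CPM. Of these 7 genes 2 were lower and 2 higher in the mutant library of both same-numbered pairs. The part of any of these cell types in the level of Calb2 was not tested.

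S100g, a small calbindin of intestine, uterus and placenta that takes part in calcium transport, was set by 1 library. The gene (chromosome X, 159399924 to 159402531, minus strand) counted 8 and 6 reads in the mutants, 45 in wild-type replicate 1 and 2 in wild-type replicate 2, which is under the floor of 3 counts. In CPM the mutant libraries held 0.726 and 0.399 and wild-type replicate 1 held 2.62, with a 95% interval of 1.91 to 3.50, while the interval of wild-type replicate 2 ran from 0.0137 to 0.409. The wild-type libraries thus lay on either side of the mutant libraries, and the fitted log2 fold change, -1.30 with a standard error of 1.14, was smaller than the standard deviation between replicates on the log2 scale, 2.15. Without wild-type replicate 1 it turned to 2.19 (standard error 1.29).

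The wild-type replicate 1 library also held the most RNA of a list of 9 fetal liver and yolk sac genes, such as Afp and Alb, which was drawn up after the values of S100g had been seen. Their summed level was 566 CPM there, against 19.4 CPM in wild-type replicate 2 and 130 and 28.8 CPM in the mutant libraries. S100g and this list put the libraries in the same order, from which nothing follows, since the list was chosen with that order known. Afp, which encodes alpha-fetoprotein, had 4603 counts in wild-type replicate 1, 39 in wild-type replicate 2, and 570 and 114 in the mutant libraries. The part of such tissue in the level of S100g was not tested. Calb1 was higher in wild-type replicate 2 than in replicate 1.

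**Figure D1:**
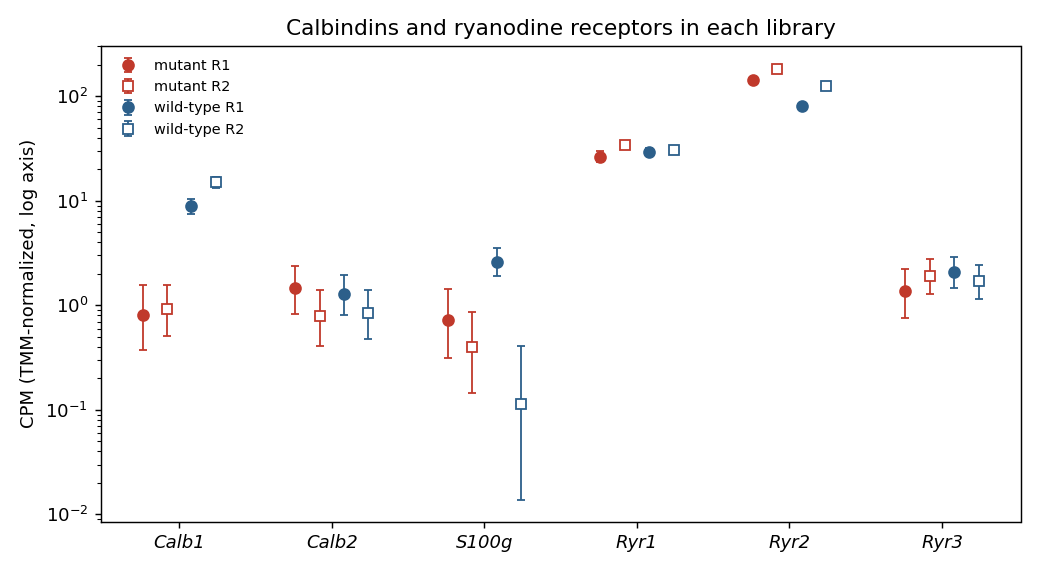
CPM (TMM-normalized, log axis) of each gene in the 4 libraries, with red for mutant, blue for wild-type, filled circles for replicate 1 and open squares for replicate 2, and bars for 95% Poisson intervals of counting error. Calb1 lies near 0.817 to 0.931 CPM in the mutant libraries and 8.89 to 15.1 CPM in the wild-type libraries, Ryr2 is higher in both mutant libraries, and the groups interleave for the other 4 genes.

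**Figure D2:**
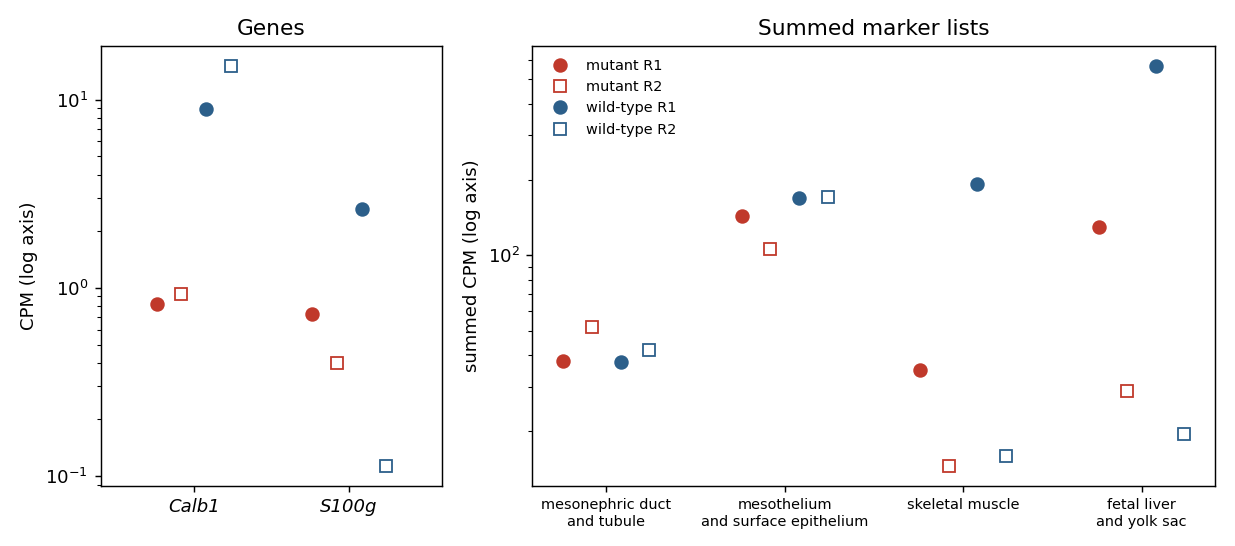
Left, CPM of Calb1 and S100g in each library, and right, summed CPM of 4 marker lists, both on log axes with the same symbols. The duct list lies at 37.5 to 51.9 CPM, highest in mutant replicate 2, and its genes differ in direction, with 3 lower and 2 higher in both pairs. The muscle and liver lists are highest in wild-type replicate 1, at 192 and 566 CPM, as is S100g.

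Of the channels, Ryr2 was by far the most abundant in these ovaries, and its level was higher in both mutant libraries. Ryr2, the channel of heart muscle and also of neurons, maps to chromosome 13, 11645370 to 12199212, minus strand. Its counts were 1589 and 2724 in the mutants against 1383 and 2222 in the wild type, or 144, 181, 80.4 and 126 CPM. Ryr2 averaged 163 ± 26.1 CPM in the mutants (SD, n = 2) and 103 ± 32.2 CPM in the wild type (SD, n = 2), and the log2 fold change was 0.66 (standard error 0.21). It was not among the genes called. Replicate 2 was 1.26 times as high as replicate 1 in mutant ovaries and 1.57 times in wild-type ovaries, while the ratio of the mutant to the wild-type mean was 1.58. Within replicate 1 the mutant level was 1.79 times the wild-type level, and within replicate 2 it was 1.44 times. Without wild-type replicate 1 the log2 fold change was 0.37 (standard error 0.17), and without wild-type replicate 2 it was 1.03 (standard error 0.18).

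Ryr1, the release channel of skeletal muscle, maps to chromosome 7, 29788359 to 29910170, minus strand. Its counts were 292 and 513 in the mutants against 504 and 544 in the wild type, or 26.5, 34.1, 29.3 and 30.8 CPM. The wild-type values lay between the mutant values, and the log2 fold change was 0.02 (standard error 0.15). The level of Ryr1 in wild-type replicate 1, the library with the most skeletal muscle RNA, was within the range of the other libraries. Some other genes of muscle calcium release were high in that library and others were not. Casq2, a calcium-binding protein of the muscle store, had 117 counts there against 4 to 14 elsewhere. Atp2a1, the calcium pump of fast muscle, had 145 against 14 to 21, and Cacna1s, the voltage sensor that opens Ryr1 in muscle, 53 against 2 to 8. Casq1, however, had 1.34 CPM there and 1.02 CPM in wild-type replicate 2, and Jph1 had 5.06 CPM there against 5.99 CPM in mutant replicate 1.

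Ryr3, the least abundant of the channels, maps to chromosome 2, 112471512 to 113057253, minus strand. Its counts were 15 and 29 in the mutants against 36 and 30 in the wild type, or 1.36, 1.93, 2.09 and 1.70 CPM. The groups overlapped, and the log2 fold change was -0.19 (standard error 0.39). Its exons share 916 bases with exons of Aven on the other strand, a gene with 309 to 562 counts per library, and those of Ryr1 share 299 bases with the non-coding gene Gm16799. Whether the counting kept the strands apart is not given in the sources used here, so the counts of Ryr3 are uncertain. The other 4 genes share 0 exonic bases with another gene in this annotation.

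In all, the libraries of the groups did not overlap for 2 of the 6 genes, Calb1 and Ryr2, a share near the 30.9% of all genes tested. The set was chosen on the fall of Calb1, so nothing follows from this count.

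To compare levels between genes, CPM were divided by the summed length of each gene's exons in kilobases. In wild-type ovaries the order from the highest mean was Ryr2, S100g, Calb1, Ryr1, Calb2 and Ryr3. Ryr2 ranged from 4.42 to 6.92 CPM per kb over the wild-type libraries, Calb1 from 1.84 to 3.12, Ryr1 from 1.91 to 2.01, Calb2 from 0.488 to 0.734 and Ryr3 from 0.0960 to 0.118. S100g, at 0.236 to 5.45 CPM per kb, overlapped each of these but Ryr3, and Calb1 and Ryr1 did not differ beyond their spread, while the other neighbours were separate.

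In mutant ovaries the order was Ryr2, Ryr1, S100g, Calb2, Calb1 and Ryr3, and Calb1 stood at rank 5, against rank 3 in wild-type ovaries. Its level per length was 0.169 to 0.192 CPM per kb, next to Ryr3 at 0.0769 to 0.109 and under Calb2 at 0.458 to 0.833. S100g, at 0.831 to 1.51, barely overlapped Calb2, Ryr1 ranged from 1.72 to 2.22 and Ryr2 from 7.93 to 9.95, and no other neighbours overlapped. Of the length-scaled level of the ryanodine receptors, Ryr2 made up 81.0% to 81.5% in mutant and 68.6% to 76.7% in wild-type libraries, and Ryr3 at most 1.83% in any library. Calb1 made up 6.70% and 12.97% of the length-scaled level of the calbindins in mutant libraries, and 22.9% and 81.2% in wild-type replicates 1 and 2, where the low share belongs to the library high in S100g.

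**Figure D3:**
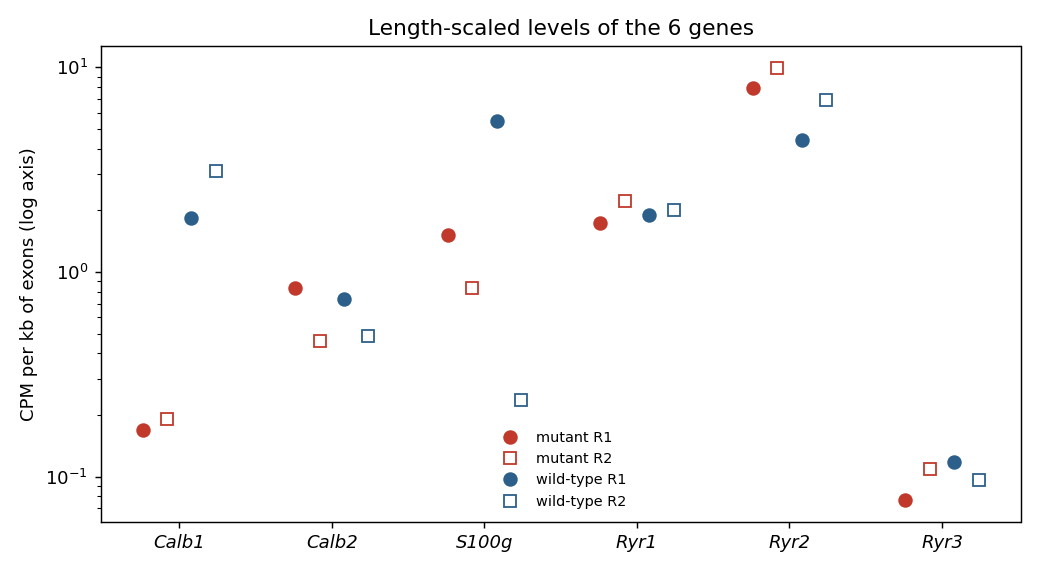
CPM per kilobase of exons (log axis) of the 6 genes, with red for mutant, blue for wild-type, filled circles for replicate 1 and open squares for replicate 2. Ryr2 is highest at 4.42 to 9.95 and Ryr3 lowest at 0.0769 to 0.118, while Calb1 lies beside Ryr1 in wild-type and beside Ryr3 in mutant libraries.

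The ovary has another family of release channels, the receptors for inositol trisphosphate (IP3), and by length these were the larger pool. Itpr1, Itpr2 and Itpr3 summed to 41.1 and 41.1 CPM per kb in the mutants and 40.8 and 43.4 CPM per kb in the wild type, against 9.73 and 12.3, and 6.44 and 9.02 CPM per kb for the ryanodine receptors. Itpr1 held 55.7% to 61.4% of the IP3 receptor level over the 4 libraries. The log2 fold changes were -0.04 (standard error 0.09) for Itpr1, -0.19 (standard error 0.10) for Itpr2 and 0.07 (standard error 0.15) for Itpr3, and edgeR gave each an adjusted p of 1.00.

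Around the 6 genes, 70 further genes of calcium buffering, release, storage and transport were listed, of which 61 were tested. By edgeR 0 were called in either direction, and at an unadjusted p under 0.05 it gave 0 higher and 5 lower in mutant ovaries, beside 456 higher and 422 lower of all 15442 genes. DESeq2 also called 0. The median log2 fold change of the 61 genes was -0.04, against -0.00088 for all genes tested, with 24 genes above 0 and 37 below, and for 26 of the 61 (42.6%) the libraries of the groups did not overlap, beside 30.9% of all genes tested.

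Among 18 tested EF-hand buffers and sensors, 6 had a log2 fold change above 0 and 12 below. S100b, a glial calcium sensor, had 1 and 5 counts in the mutant and 14 and 15 in the wild-type libraries (log2 fold change -1.85, standard error 0.66, adjusted p = 0.762, edgeR). Scgn, the gene of secretagogin, an EF-hand relative of the calbindins, had 17 and 18 counts against 12 and 12 (log2 fold change 0.97, standard error 0.44, adjusted p = 0.920, edgeR).

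Of 11 tested partners of the ryanodine receptors, 7 had a log2 fold change below 0 and the median was -0.46. Casq2 had the lowest, -3.11 (standard error 1.05, adjusted p = 0.718, edgeR). Its difference came mostly from the 117 counts of wild-type replicate 1. Fkbp1b, an immunophilin that binds the channel, had 45 and 69 counts in the mutant and 65 and 70 in the wild-type libraries (log2 fold change 0.16, standard error 0.27). The row of its relative Fkbp1a held 3 to 31 counts and was not tested. The annotation used in the counting is not given, so these counts may not reflect its level in the ovary.

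Among 11 tested genes of pumps, store proteins and store-operated entry, Atp2a2, the main calcium pump of the endoplasmic reticulum, had a log2 fold change of -0.02 (standard error 0.08). The smallest p of the 61 genes belonged to Stim1, the calcium sensor of the store, with 74.2 CPM in mutant and 96.4 CPM in wild-type ovaries (means, n = 2, log2 fold change -0.38, standard error 0.10, adjusted p = 0.460, edgeR). Trpv5 and Trpv6, the epithelial entry channels that work with calbindins in transcellular calcium transport, were scarce, with 8 to 35 and 15 to 29 counts per library. Their log2 fold changes were -0.71 (standard error 0.62) and 0.24 (standard error 0.40), and of the 13 genes of plasma membrane transport 8 lay above 0 and 5 below.

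None of the 3 listed receptors known to control calbindin genes elsewhere passed the test. Vdr, the vitamin D receptor, had 159 and 266 counts in the mutant and 309 and 305 in the wild-type libraries, and its log2 fold change was -0.13 (standard error 0.16). Esr1, the oestrogen receptor alpha, had 258 and 414 against 366 and 431 counts and a log2 fold change at 0.16 (standard error 0.15), and Esr2, the oestrogen receptor beta, had 16 and 25 against 16 and 22 counts and 0.52 (standard error 0.41). By edgeR the adjusted p of all 3 was 1.00. The mitochondrial genes tested, Mcu and Micu2, had log2 fold changes of 0.0052 and 0.0084.

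**Figure D4:**
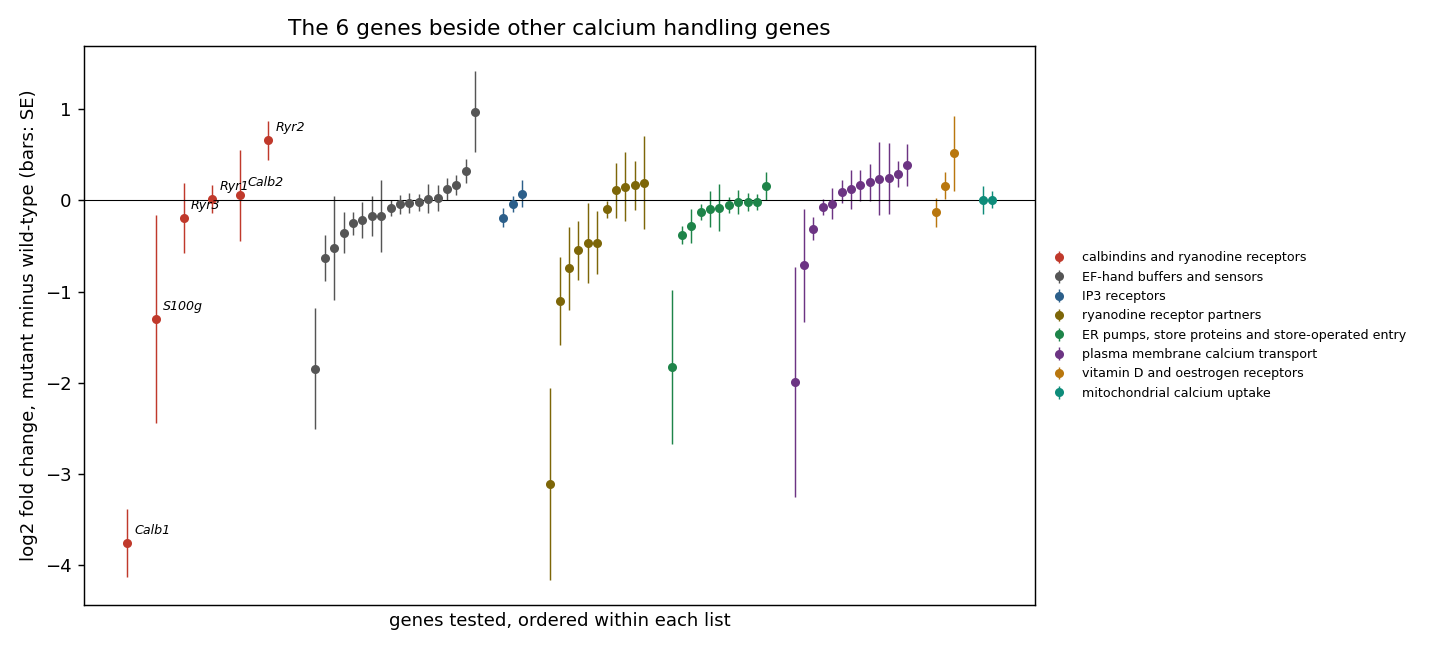
Log2 fold change of mutant minus wild-type ovaries with its standard error for the 6 genes (red, labelled) and the 61 other calcium handling genes tested, ordered within each list. Calb1 at -3.76 is the lowest of all, 5 of the other genes lie beyond 1 in size, and most genes of the IP3 receptor, pump and transport lists lie close to 0.

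The genes of most similar pattern were sought for Calb1, S100g and Ryr2, whose log2 CPM spanned more than 1 over the 4 libraries. Likeness was the root mean square difference, over these 4 values, of log2 CPM centred on each gene's own mean. With 4 points this describes the libraries and no more.

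For Calb1 the nearest genes were Trpc5 (difference 0.67), Cldn13 (0.68), Cbln2 (0.72), Rgs2 (0.75) and Crym (0.81). Trpc5, which encodes a calcium-permeable cation channel, had 11 and 6 counts in the mutant and 77 and 88 in the wild-type libraries. Rgs2, a regulator of G-protein signalling, was the most abundant of these, with 215 and 295 counts against 1322 and 1608. All 5 were higher in both wild-type libraries than in either mutant library. They were picked for likeness to Calb1, so this split follows from the choice. Some were near the floor in the mutants, as Cbln2 with 1 and 0 counts and Crym with 3 and 2.

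For S100g they were Gc (0.13), Timd4 (0.26), Rbp4 (0.28), Gys2 (0.31) and Gda (0.32). Gc, the vitamin D-binding protein of plasma, had 10 and 8 counts in the mutant libraries, 45 in wild-type replicate 1 and 3 in wild-type replicate 2, nearly the counts of S100g itself. Rbp4, the plasma carrier of retinol, had 64, 41, 289 and 37 counts in the same order. For Ryr2 they were AK149307_gene (0.03), Carns1 (0.05), Foxl2os (0.05), AK017104_gene (0.05) and Epha5 (0.05). Foxl2os, a transcript antisense to the neighbourhood of Foxl2 whose counts need strand to be certain, had 386 and 682 counts in the mutant and 363 and 534 in the wild-type libraries, and Epha5, an ephrin receptor, 20 and 35 against 15 and 26.

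**Figure D5:**
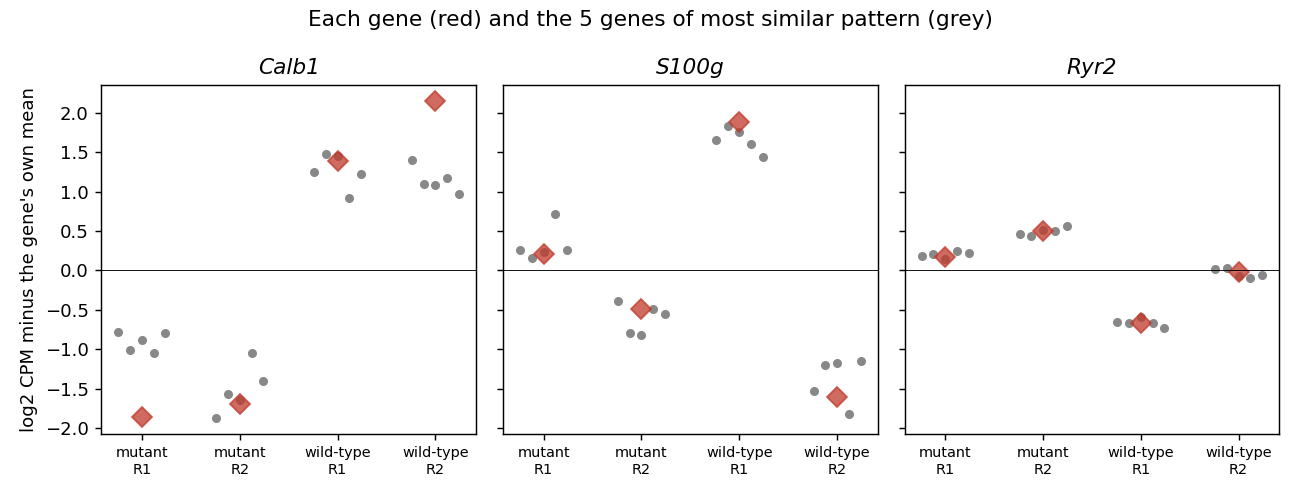
Log2 CPM (prior count 2) minus the gene's own mean in each library for Calb1, S100g and Ryr2 (red diamonds) and the 5 genes of most similar pattern (grey points). The genotypes part the points of Calb1, wild-type replicate 1 stands alone for S100g, and for Ryr2 replicate 2 is higher than replicate 1 in both groups.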

How the data were processed

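The authors aligned reads with STAR 2.6.1d, and the deposited raw counts per gene, from summarizeOverlaps, cover 4 libraries. The labels name mm9. The annotation and strand setting are not given in the sources used here. Columns were matched to libraries by genotype and replicate number, and 0 were left unused.

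Counts were analysed in R 4.3.3 with edgeR 4.0.16 (TMM, filterByExpr, quasi-likelihood F-test, Benjamini-Hochberg adjustment over 15442 genes, threshold 0.05), with genotype as the only factor. The study's tool, DESeq2 1.42.0, was an alternative. Standard errors came from the fold change and F statistic. The genes and lists were chosen with earlier results of these data known, and the liver list after S100g's values were seen. Named were the 6 genes, Sall1, a fixed set of calcium genes, called list genes and 5 nearest genes. Single others (Casq1, Casq2, Jph1, Atp2a1, Cacna1s, S100b, Scgn, Stim1, Esr2, Mcu, Micu2) and markers (Ret, Pax8, Upk3b, Afp) were chosen after their values were seen. Of the marker lists, 8 smooth muscle genes summed to 99.2 to 150 CPM in mutant and 123 to 166 CPM in wild-type libraries. In the marker lists 0 genes were called by edgeR. Identities used global BLOSUM62 alignment. Gene models come from GENCODE M1 (NCBIM37, the assembly also called mm9) and may differ from those counted. Intervals are exact Poisson, 95%.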

Additional observations from a re-analysis of the deposited data

How the results depend on the processing

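The log2 fold changes of the 6 genes moved by less than the spread between replicates under DESeq2, RLE size factors, library totals only, no filter and the replicate block. A minimum of 10 counts in every library removed Calb1 and S100g, which then have no value. With each library left out in turn, where the lone library of a group is assumed to vary like the others, Calb1 ranged from -4.09 to -3.32, Calb2 from -0.41 to 0.44, S100g from -2.23 to 2.19, Ryr1 from -0.18 to 0.18, Ryr2 from 0.37 to 1.03 and Ryr3 from -0.48 to 0.022. Taking the longest transcript as the length put Calb1 at rank 2 and S100g at rank 3 in wild-type ovaries, and the other ranks stayed.

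The number of all genes called, 2 higher and 7 lower in mutant ovaries, was 42 and 63 with DESeq2, 9 and 19 with no filter, 5 and 14 with at least 10 counts in every library, and from 1 to 42 and 3 to 88 with a library left out. Without mutant replicate 1 it was 42 and 88, without mutant replicate 2 it was 20 and 18, and without wild-type replicate 2 it was 1 and 3. With the replicate block it was 180 and 205, or 2.49% of the genes tested. The block called 2 of the 6 genes, Calb1 and Ryr2 (for Ryr2 a log2 fold change of 0.68, standard error 0.092). Since the contrast chose the set, nothing follows from these calls. Of the other calcium handling genes the block called 2, Casq2 and Stim1, both lower in mutant ovaries, where every other setting called 0. Labels do not say that libraries of the same number were paired, though their columns carry neighbouring library numbers. Their deviations from the group means correlated across genes at 0.481. The cause of these differences was not tested. Depth limits Calb2, S100g and Ryr3 most, at 2 to 45 counts per library.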
